A study of Mus musculus with 20 samples.

Results

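The tubulin genes and the enzymes that modify tubulin tails were described in neural stem cells (NSCs) and 4 progenitor populations of the neonatal mouse periventricular zone. The members were all genes of the expression table whose symbol joins Tuba, Tubb, Tubg, Ttll or Agbl to a number, without the pseudogene names, which gave 35 of 45705 genes. They were 7 alpha-tubulins, 8 beta-tubulins, 2 gamma-tubulins, 13 tubulin tyrosine ligase-like (Ttll) genes and 5 Agbl genes. All cells came from Swiss Webster pups at postnatal day 5, and the males and females of a litter were pooled. No treatment or transgene is named for any group. Live cells were sorted on the surface antigens CD140a and NG2 and then on CD133 and CD15 (Lewis X) into 5 populations. NSC carried CD133 and Lewis X without NG2 or CD140a. The progenitor gates were named BNAP/GRP1, for a bipotential neuronal-astrocytic and a glial-restricted type that share a gate, GRP2/MP3, for a glial-restricted and a multipotential type that share a gate, GRP3, a glial-restricted type, and PFMP, a multipotential type that responds to PDGF and FGF. Each population has a library in each of 4 batches, as numbered in the labels, which gave 20 libraries of amplified polyadenylated RNA. The values are RPKM, read counts scaled to transcript length and library size. The RNA was amplified and the lengths used are not given in the sources used here. Comparisons between different genes, such as isotype shares, are therefore approximate.

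Microtubules are polymers of alpha- and beta-tubulin, and gamma-tubulin nucleates them. Each subunit is encoded by several genes, the isotypes, whose proteins differ mostly in the acidic tail that projects from the microtubule surface. TTLL enzymes add chains of glutamate or glycine to glutamates of that tail, and the cytosolic carboxypeptidases encoded by the Agbl genes shorten glutamate chains. Chains of this kind are abundant on the axonemes of motile cilia, which ependymal cells bear in tufts on the ventricle wall, and on the microtubules of neurons.

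The coding ends of 5 isotypes are shown because they carry the sites that these enzymes modify. Each is the last 20 codons before the stop codon, in the last coding exon, from GENCODE transcripts on GRCm38, with the codons for glutamate in capitals.
Tubb4b (chr2:25222311-25222370, minus strand): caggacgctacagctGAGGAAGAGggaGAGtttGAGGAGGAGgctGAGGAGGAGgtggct
Tubb5 (chr17:35834985-35835044, minus strand): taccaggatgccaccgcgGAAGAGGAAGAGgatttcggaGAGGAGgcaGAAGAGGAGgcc
Tubb2b (chr13:34127474-34127533, minus strand): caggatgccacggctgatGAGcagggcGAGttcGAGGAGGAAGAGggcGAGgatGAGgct
Tubb3 (chr8:123421620-123421679, plus strand): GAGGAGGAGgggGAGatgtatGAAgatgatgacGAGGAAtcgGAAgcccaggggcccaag
Tuba4a (chr1:75215625-75215684, minus strand): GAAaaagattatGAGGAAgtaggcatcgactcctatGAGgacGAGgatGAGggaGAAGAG
The tail end of Tubb4b held 10 glutamate codons, the most of the 11 isotypes read, against 9 in Tubb5 and 8 in Tubb2b, Tubb3 and Tuba4a. Tuba4a ended in a glutamate codon and thus lacks the final tyrosine that detyrosination removes from most alpha-tubulins. The coding sequences of Tuba1a and Tuba1b were 98.3% identical, those of Tuba1b and Tuba1c 97.9% and those of Tubb2a and Tubb2b 96.5%. The estimated abundances of these pairs may therefore share reads, and their separate values are uncertain. Tubb4b was at most 83.7% identical to any other beta-tubulin coding sequence.

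The promoters of 30 members were found in RefSeq (GRCm38.p6) as 35 windows of 250 bases before to 50 after a start site. The X-box, the site of RFX factors in many ciliary genes, was searched on both strands as GTNNCCNGNAAC, GTNNCCNNGNAAC, GTNNCCNNNGNAAC or GTNNCCNNNNGNAAC. It matched 4 of the 35 member windows (11.4%), against 5.25% of 32851 promoter windows of the same length. The windows of Ttll9 and Agbl3 are shown because both genes are described at length below, with the match in capitals.
Ttll9 (chr2:152962454-152962487, plus strand): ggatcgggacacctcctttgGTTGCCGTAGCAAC
Agbl3 (chr6:34780391-34780424, plus strand): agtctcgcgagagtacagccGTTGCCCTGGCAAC
The match began 11 bases before the start site in Ttll9 and 21 bases before it in Agbl3. The other matches were in Ttll10, with 3, and Ttll8. The windows of Tubb4b and Ttll6 held none of these motifs.

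The libraries were not alike within populations. Summed RPKM ran from 955067 to 2407643 a library, and the numbers of reads behind it are not given in the sources used here. In BNAP/GRP1 batch 4 the median gene was at 8.30 RPKM, against at most 2.02 in the other libraries, and 13 of the 35 members had their highest value of all in that library. All 5 libraries of batch 3 held 228400 to 252700 RPKM of 5 erythroid genes, against at most 26510 in any other library, and 838.8 to 964.8 RPKM of the secretory airway gene Scgb1a1, which reached 13.6 RPKM at most elsewhere. Samples of a batch deviated together from their population means (median correlation between 0.262 and 0.769 within the batches), so the batch was fitted as a block in an alternative whose results are given beside the calls. The 10 markers of neural stem cells and astroglia overlapped in their sum, which was mostly Fabp7, with 296 to 5311 RPKM in NSC and 150 to 15080 RPKM in the progenitors. Of these 10, Hopx was called lower in the 4 progenitors together (14.8 to 146.8 RPKM in NSC, at most 12.2 RPKM in progenitors), and Id4 was above all progenitors of its batch in NSC without passing (adjusted p = 0.0926 with limma). The 9 multiciliated ependymal markers did not overlap, with 1875 to 17230 RPKM in NSC and 1.80 to 144 RPKM in the progenitors.

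The members that differed between NSCs and progenitors were the axonemal beta-tubulin Tubb4b, the axonemal glutamylases Ttll6 and Ttll9, and the glycylase Ttll3, all lower in progenitors. No member was called higher in any progenitor population. Of the 35 members, 30 reached 1 RPKM in at least 4 libraries and were tested with limma over all 27614 such genes. Against the mean of the 4 progenitors, 4 members were lower in progenitors than in NSC and 0 were higher, where 1.96% of all genes tested were called lower and 0.0217% higher. BNAP/GRP1 had 1 member lower than NSC (0.760% of all genes), GRP2/MP3 had 3 (1.12%), GRP3 had 3 (1.04%) and PFMP had 3 (1.14%). In these 4 comparisons 0 members were higher, as were 0%, 0%, 0.0109% and 0.00362% of all genes. At an unadjusted p under 0.05, 9 members were lower and 0 higher against the 4 progenitors together (5.96% and 0.916% of all genes). At that level BNAP/GRP1 had 4 members lower (4.03% of all genes), GRP2/MP3 8 (4.92%), GRP3 7 (4.36%) and PFMP 9 (5.08%). Tuba1c in GRP2/MP3 was the 1 member higher (0.873% of all genes), with 0 in BNAP/GRP1 (1.87%), GRP3 (1.26%) and PFMP (0.793%). The median log2 difference of the 30 members was -0.667, against 0.07 for all genes tested. These comparisons share the same 4 NSC libraries.

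**Figure D1:**
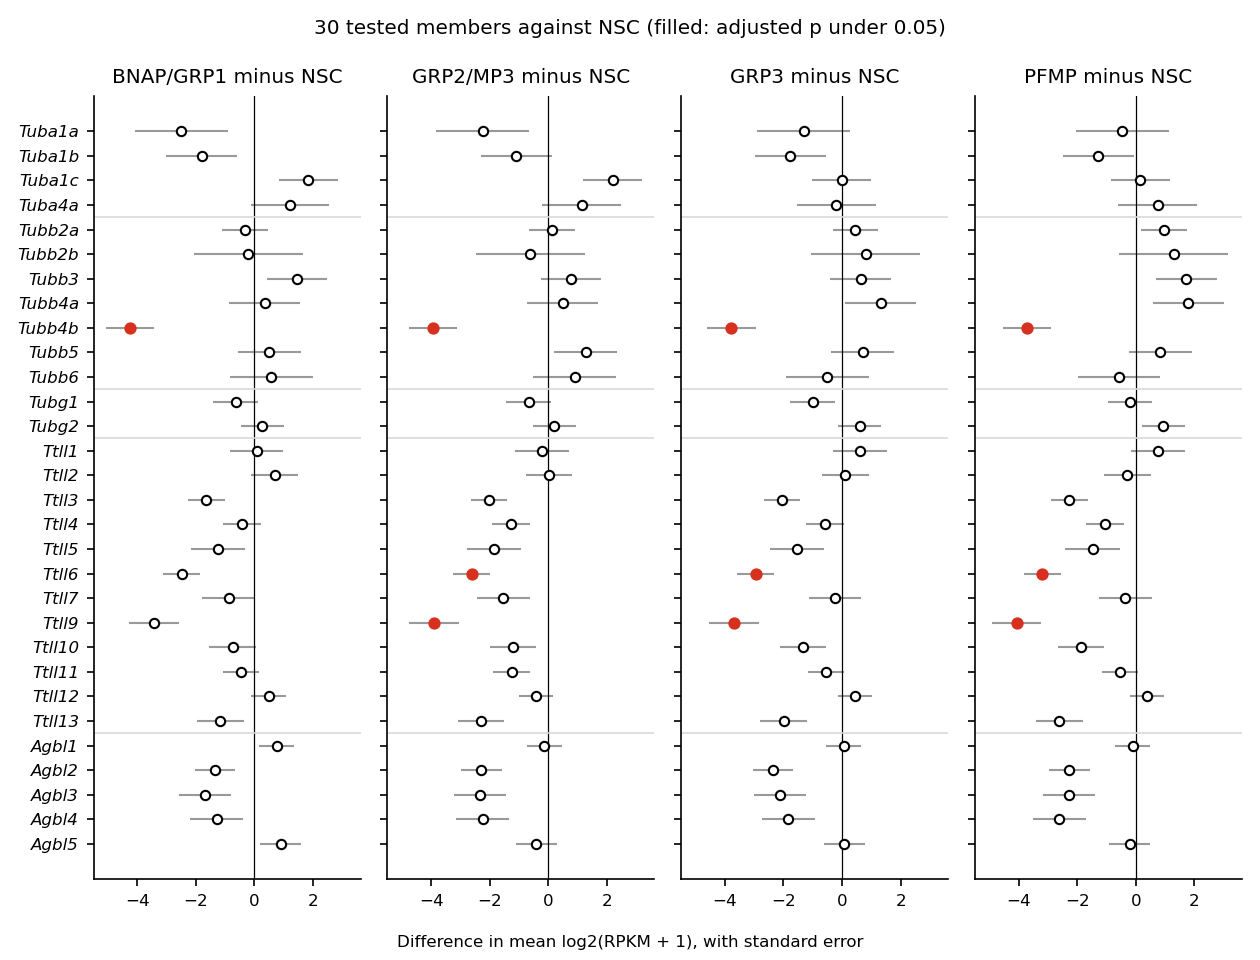
Differences in mean log2(RPKM + 1) between each of the 4 progenitor populations and NSC for the 30 tested members, ordered by family, with standard errors as bars and filled points where the adjusted p was under 0.05. Tubb4b is the leftmost or second leftmost point in each panel, and the filled points are Tubb4b in all 4 panels with Ttll6 and Ttll9 in the 3 panels for GRP2/MP3, GRP3 and PFMP.

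Tubb4b, the beta-tubulin of axonemes and of many dividing cells, had 1312, 5368, 463 and 646 RPKM in NSC batches 1 to 4. In the 16 progenitor libraries it ran from 14.4 to 244 RPKM, with means between 80.7 ± 50.3 (SD, n = 4) for BNAP/GRP1 and 119.6 ± 96.0 for PFMP. All 4 NSC libraries were above all 16 progenitor libraries, a separation in that direction seen in 0.587% of all genes tested. Within a batch, NSC was 10.4, 22.0, 3.16 and 11.9 times the highest progenitor library, and the narrowest gap was in batch 3. The log2 difference from NSC was -4.25 ± 0.82 (SE) for BNAP/GRP1 (limma adjusted p = 0.011) and -3.94 ± 0.82 for GRP2/MP3 (adjusted p = 0.0148). It was -3.78 ± 0.82 for GRP3 (adjusted p = 0.0221) and -3.71 ± 0.82 for PFMP (adjusted p = 0.0224). For the 4 progenitors together it was -3.92 ± 0.65 (adjusted p = 0.00096). Tubb4b was still present in every progenitor library, unlike the glutamylases below.

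Ttll6 encodes a glutamylase of axonemes that lengthens glutamate chains. It had 6.60, 18.1, 5.596 and 6.55 RPKM in NSC, and at most 0.220 RPKM in the 12 progenitor libraries of batches 1 to 3, where 7 of them list it at 0. In batch 4, BNAP/GRP1 had 5.75 RPKM and GRP2/MP3 3.18, while GRP3 had 0.972 and PFMP 0.00372. Batch 4 thus held the high progenitor values, and BNAP/GRP1 batch 4 alone lay within the NSC range. The log2 difference from NSC was -2.62 ± 0.64 in GRP2/MP3 (limma adjusted p = 0.0485), -2.95 in GRP3 (adjusted p = 0.0207) and -3.19 in PFMP (adjusted p = 0.00936). In BNAP/GRP1 it was -2.49 and did not pass (adjusted p = 0.087). Against the 4 progenitors together it was -2.81 ± 0.50 (adjusted p = 0.0021).

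Ttll9, another glutamylase of axonemes and among the genes with an X-box match, had 15.4, 55.8, 5.34 and 40.1 RPKM in NSC. In batches 1 to 3 the progenitors had at most 0.55 RPKM. In batch 4 they had 1.31 to 13.4 RPKM, highest for BNAP/GRP1. NSC was above every progenitor library of its own batch, by 28.0, 435, 21.9 and 3.00 times the highest of them. The log2 difference from NSC was -3.90 ± 0.85 in GRP2/MP3 (limma adjusted p = 0.0209), -3.69 in GRP3 (adjusted p = 0.0321), -4.08 in PFMP (adjusted p = 0.0135) and -3.77 ± 0.67 for the 4 progenitors together (adjusted p = 0.00193). In BNAP/GRP1 it was -3.43 and did not pass (adjusted p = 0.0681).

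Ttll3, the glycylase that starts glycine chains, had 4.37, 15.2, 1.81 and 6.70 RPKM in NSC. Progenitor libraries had 0.0187 to 1.21 RPKM apart from BNAP/GRP1 batch 4, at 7.13 RPKM. That library alone lay above the NSC library of its batch. The log2 difference for the 4 progenitors together was -1.998 ± 0.50 (limma adjusted p = 0.0354), and none of the 4 populations passed on its own (log2 differences between -2.27 and -1.64, adjusted p between 0.102 and 0.573).

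**Figure D2:**
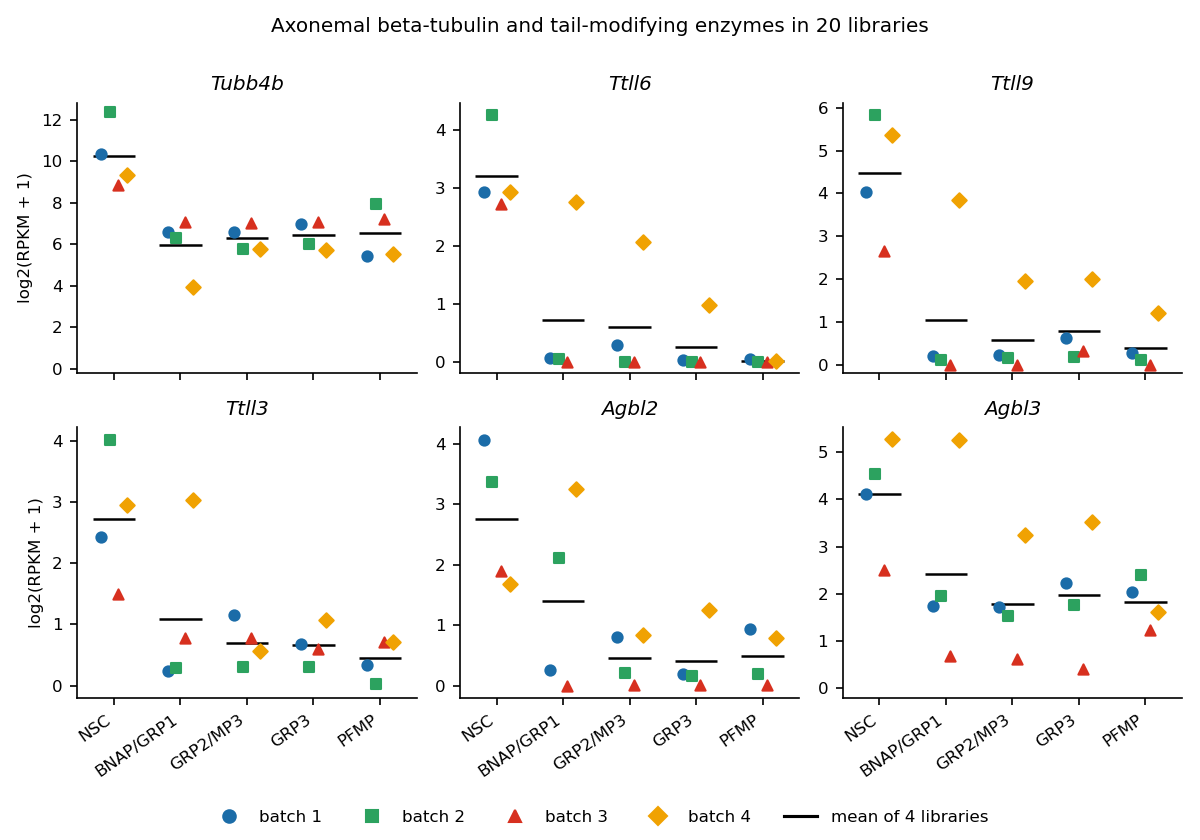
Expression as log2(RPKM + 1) of Tubb4b, Ttll6, Ttll9, Ttll3, Agbl2 and Agbl3 in the 20 libraries, by population, with batch as colour and marker and the mean of 4 libraries as a bar. NSC lies above all progenitor libraries for Tubb4b, while batch 4 progenitors, BNAP/GRP1 above all, reach toward or into the NSC range for the enzymes.

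These calls depended on which libraries gave the spread. With the batch as a block, BNAP/GRP1 had 3 members lower than NSC (2.02% of all genes), which were Tubb4b, Ttll6 and Ttll9 (limma adjusted p of 0.000863, 0.0119 and 0.00157). GRP2/MP3 had 5 lower (2.91%) and GRP3 had 5 (2.33%), both with Agbl2 and Agbl3 added. PFMP had 7 (2.61%) and the 4 progenitors together had 8 (4.14%). With batch 3 left out of every population, BNAP/GRP1 had 1 member lower (1.01%), GRP2/MP3 2 (1.51%), GRP3 2 (1.37%), PFMP 3 (1.52%) and all progenitors together 4 (2.38%). With both changes they were 2 (1.45%), 2 (2.19%), 3 (1.90%), 3 (2.11%) and 5 (3.19%) in the same order. In batches 1 and 2 alone, a fit chosen after seeing the data, 8 members were lower in GRP3 (3.86%), 6 in PFMP (4.11%), 6 in BNAP/GRP1 (3.97%), 6 in GRP2/MP3 (4.47%) and 9 in all progenitors together (5.65%), and Tubb4b did not pass in BNAP/GRP1 and PFMP (adjusted p of 0.0505 and 0.0546). When only the NSC libraries and those of the compared population entered the fit, 0 members passed in each of the 4 populations (0.217% to 0.406% of all genes were lower), with limma adjusted p for Tubb4b between 0.111 and 0.273. Without NSC batch 2, the library with the highest Tubb4b, Ttll6, Ttll9 and Ttll3, every call against a single population was lost (adjusted p between 0.0567 and 0.248), where 0.319% to 0.641% of all genes were lower. The calls of Tubb4b, Ttll6 and Ttll9 against the 4 progenitors together were kept with each of the 20 libraries left out in turn, with adjusted p of at most 0.0153, 0.0285 and 0.029. Ttll3 lost that call in 14 of the 20, at an adjusted p of up to 0.361 without NSC batch 2. Without BNAP/GRP1 batch 4, 4 members were lower in BNAP/GRP1 (1.58% of all genes), with log2 differences of -3.17 for Ttll6 (adjusted p = 0.00172), -4.37 for Ttll9 (adjusted p = 0.00179) and -2.29 for Ttll3 (adjusted p = 0.0224), and 8 were lower in the 4 progenitors together (3.19% of all genes).

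Of the 5 carboxypeptidase genes, Agbl2, Agbl3 and Agbl4 were lower in progenitors than in NSC in all 4 batches by means of log2(RPKM + 1) but did not pass the test without the block. By mean RPKM, batch 4 went the other way for Agbl2 (2.87 RPKM in progenitors, 2.22 in NSC) and for Agbl4 (10.1 and 5.96 RPKM). Agbl2 had 15.8, 9.31, 2.74 and 2.22 RPKM in NSC and at most 3.33 RPKM in progenitors outside BNAP/GRP1 batch 4, which had 8.57 RPKM. Its log2 difference for the 4 progenitors together was -2.07 ± 0.55 (limma adjusted p = 0.0578). Agbl3, with the second of the X-box matches shown, had 16.3, 22.1, 4.68 and 37.8 RPKM in NSC. In progenitors it had 0.328 to 4.30 RPKM in batches 1 to 3 and 2.04 to 37.2 RPKM in batch 4. BNAP/GRP1 batch 4 was the highest of these, next to its NSC library, and the log2 difference for the 4 progenitors together was -2.11 ± 0.70 (adjusted p = 0.201). Agbl4 had 8.97, 14.8, 2.02 and 5.96 RPKM in NSC, at most 1.15 RPKM in progenitors of batches 1 to 3, and 30.6 RPKM in BNAP/GRP1 and 6.47 RPKM in GRP3 of batch 4. Its log2 difference was -1.99 ± 0.71 (adjusted p = 0.292).

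With the batch as a block these 3 genes passed against the 4 progenitors together, with adjusted p of 0.0148 for Agbl2, 0.00578 for Agbl3 and 0.0441 for Agbl4. The glutamylase Ttll13, which lengthens chains, passed in the same fit (adjusted p = 0.0268), after -2.02 ± 0.63 and 0.15 without the block. Ttll13 had 11.1, 20.4, 0.785 and 5.66 RPKM in NSC, and 14.2 RPKM in BNAP/GRP1 batch 4. All other progenitor libraries had at most 3.79 RPKM of Ttll13. The remaining carboxypeptidase genes were Agbl1, with a median of 0.25 RPKM over the 20 libraries, and Agbl5, which removes the glutamate at the branch point of a chain, with a median of 0.742 RPKM. Both were highest in BNAP/GRP1 batch 4, at 9.30 and 18.1 RPKM, and neither differed from NSC by 1 or more on the log2 scale in any population.

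Of the other glutamylases, Ttll5 had 16.0, 16.8, 1.83 and 44.9 RPKM in NSC, each above all 4 progenitor libraries of its batch. Its log2 difference was -1.53 ± 0.73 (limma adjusted p = 0.715), and 36.4 RPKM in BNAP/GRP1 batch 4 was its highest progenitor value. The glycylase Ttll10, which lengthens glycine chains, had 5.20, 3.14, 0 and 8.60 RPKM in NSC and a log2 difference of -1.29 ± 0.63 (adjusted p = 0.737), with 16.99 RPKM in BNAP/GRP1 batch 4 as its highest value. Ttll1, the catalytic subunit of a polyglutamylase complex, Ttll2 and Ttll12, which has no known ligase activity, differed from NSC by less than 1 on the log2 scale in every population. The direction of Ttll1 changed with the batch. In batch 2 NSC had 5.675 RPKM of Ttll1 and the progenitors 0.489 to 4.38 RPKM. In batch 4 NSC had 2.86 RPKM and the progenitors 10.3 to 41.0 RPKM. Ttll4 differed by -1.28 ± 0.65 for GRP2/MP3 (adjusted p = 0.957) and by -1.06 ± 0.65 for PFMP (adjusted p = 1). For GRP2/MP3, Ttll7, a glutamylase of neurons, differed by -1.53 ± 0.90 (adjusted p = 1) and Ttll11 by -1.25 ± 0.62 (adjusted p = 0.91). The levels of Ttll1, Ttll4, Ttll5, Ttll7 and Ttll12 had medians of 2.73 to 3.96 RPKM over the 20 libraries, and those of Ttll6 and Ttll9 had medians of 0.0317 and 0.227 RPKM.

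Over the batches taken one at a time, 13 of the 30 tested members were lower in progenitors than in NSC in all 4 batches by means of log2(RPKM + 1) and 2 were higher in all 4, against 10.1% and 11.9% of all genes. The 13 included the 8 genes called under the batch block. By mean RPKM the count was 10, with 6 of those 8, since Agbl2, Agbl4 and Ttll7 dropped out.

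Markers of multiciliated cells were higher in NSC than in progenitors, as were Tubb4b, Ttll6, Ttll9 and Ttll3. All 9 of those markers were lower in each of the 4 progenitor populations, where 0.760% to 1.14% of all genes were called lower. Their median log2 difference was -7.71 for the 4 together. Foxj1, the regulator of motile cilia, and the axonemal gene Rsph1 are among them. The list was chosen with earlier results of these data known, so its count is no independent support. The markers summed to 3854, 17230, 1875 and 7455 RPKM in NSC batches 1 to 4. The highest of these was in batch 2, where Tubb4b, Ttll6, Ttll9 and Ttll3 were also highest. Among progenitors, GRP2/MP3 batch 4 held the most, 144 RPKM, and the other libraries of batch 4 held 49.4 to 58.9 RPKM, against at most 37.4 RPKM elsewhere. Among the same progenitor libraries, Ttll6, Ttll9 and Ttll3 were instead highest in BNAP/GRP1 batch 4, where the markers summed to 55.4 RPKM. Tubb4b had its lowest value of all in that library, 14.4 RPKM. Other lists held fewer calls. Of the 5 tested choroid plexus markers, Folr1 and Otx2 were lower in the 4 progenitors together, with a median log2 difference of -1.92 for the list, whose 6 genes summed to 9.98 to 213 RPKM in NSC and at most 78.9 RPKM in progenitors. The 10 markers of neural stem cells and astroglia had a median of -1.72, with Hopx as the 1 called lower. The part of these lists in the difference of the members was not tested, and in bulk libraries fewer cells of a type and less RNA per cell cannot be told apart.

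**Figure D3:**
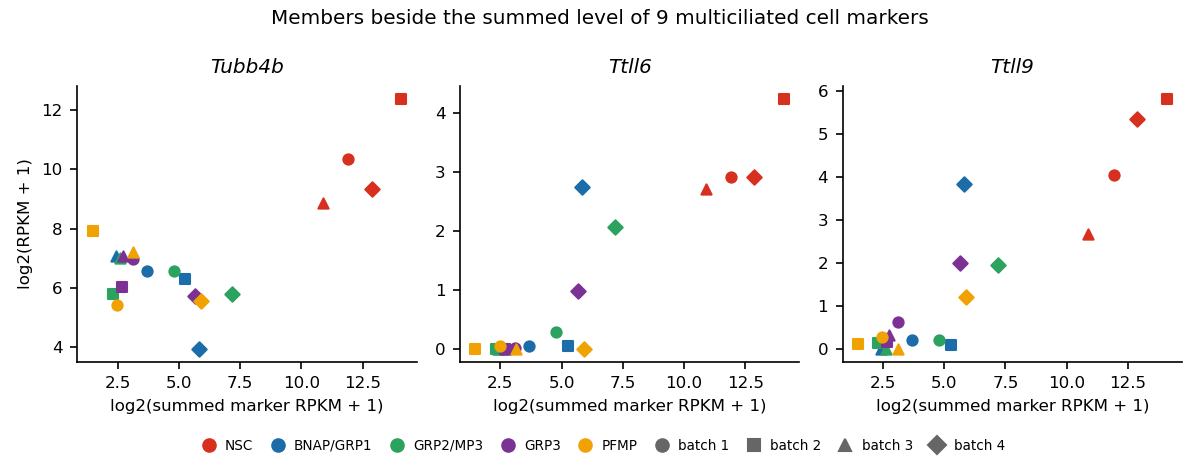
Levels of Tubb4b, Ttll6 and Ttll9 as log2(RPKM + 1) against the summed RPKM of 9 multiciliated cell markers on the same log2 scale, a point for each of the 20 libraries, with population as colour and batch as marker. The 4 NSC libraries stand apart at summed levels of 1875 RPKM and above, and among the progenitors Tubb4b stays between 14.4 and 244 RPKM at summed levels of 144 RPKM and below.

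Tubb4b was also the main beta-tubulin of NSCs by share. It made up 71.5%, 87.0%, 59.9% and 39.8% of summed beta-tubulin RPKM in NSC batches 1 to 4, a mean of 64.5% ± 19.9 (SD, n = 4). In progenitors its mean share lay between 10.3% ± 13.3 for GRP3 and 12.9% ± 12.1 for BNAP/GRP1. Batch 3 held the highest share in each progenitor population, from 29.6% to 31.0%, and the other 12 progenitor libraries had 1.19% to 12.1%. Without batch 3 the mean share was 3.64% for GRP3, 5.25% for PFMP, 6.94% for BNAP/GRP1 and 7.24% for GRP2/MP3. These shares are a description, with no test, and rest on the approximate comparison of RPKM between different genes.

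The main beta-tubulin of the progenitors differed between batches. Tubb2b, a beta-tubulin of neural progenitors and young neurons, made up 76.0% and 81.7% of beta-tubulin RPKM in GRP3 batches 1 and 2, and 85.9% and 52.0% in PFMP. The same gene made up 1.62% and 4.09% in GRP3 batches 3 and 4. Its level was 2262, 2026, 7.27 and 51.8 RPKM in GRP3 batches 1 to 4, and all 5 populations of batch 3 had 5.90 to 23.7 RPKM. Tubb5, a beta-tubulin of most dividing cells, made up 46.5% to 83.7% in the progenitors of batch 4, up to 1815 RPKM in GRP2/MP3. In NSC batch 4 it made up 51.8%, which exceeded Tubb4b there. The batches accounted for 80.8% of the variation of Tubb2b over the 20 libraries on the log2 scale and the populations for 6.80%, whereas for Tubb4b the batches accounted for 11.0% and the populations for 71.0%.

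**Figure D4:**
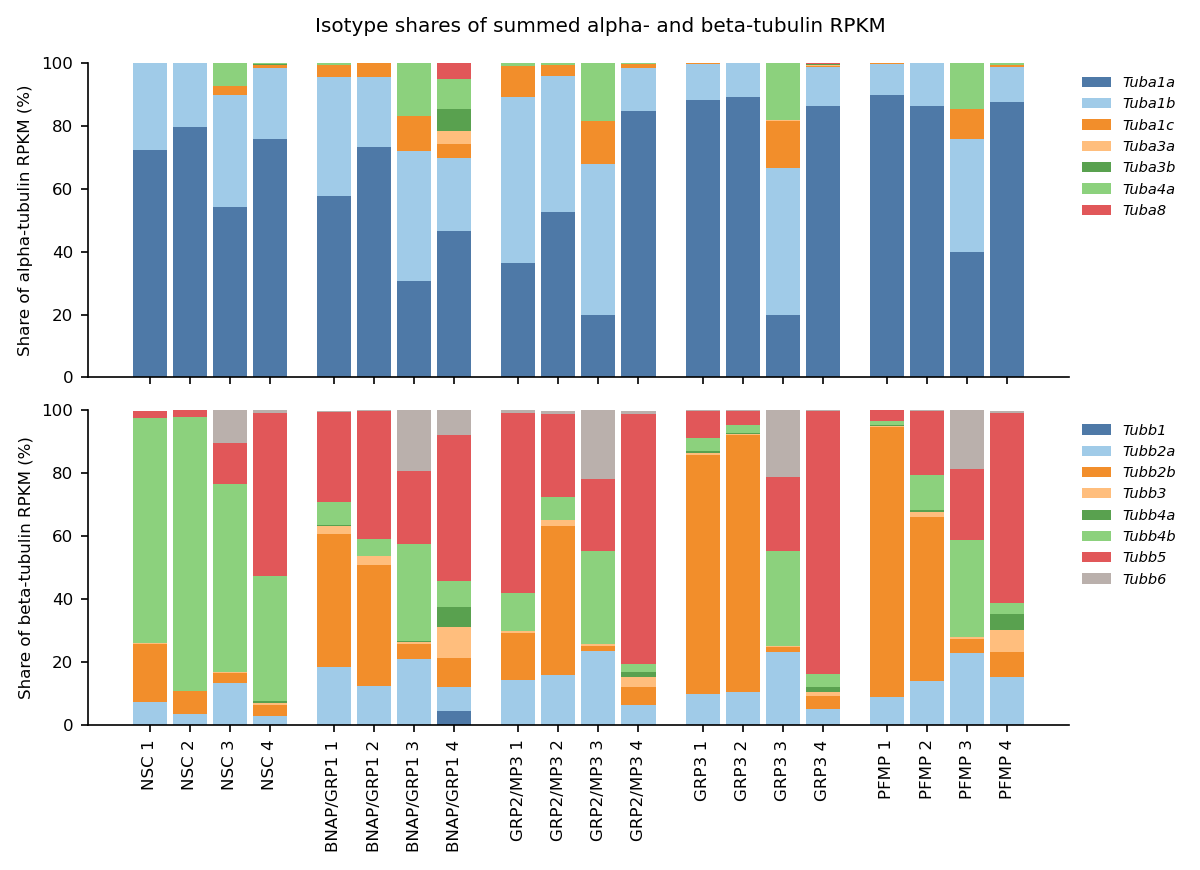
Share of each isotype in the summed alpha-tubulin RPKM (upper bars) and beta-tubulin RPKM (lower bars) of the 20 libraries, in percent, grouped by population with batches 1 to 4 in order, each colour an isotype. Tubb4b takes 39.8% to 87.0% of beta-tubulin in NSC and Tubb2b 52.0% to 85.9% in batches 1 and 2 of GRP3 and PFMP, while within each population Tubb6 and Tuba4a are widest in batch 3.

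The alpha-tubulins showed no called difference. Tuba1a, the alpha-tubulin of neural progenitors and neurons, had the highest level of any member, 10780, 13190, 722 and 1011 RPKM in NSC. It had 6430, 6681, 116 and 554 RPKM in GRP3, and 8555, 7034, 292 and 1636 RPKM in PFMP. In BNAP/GRP1 and GRP2/MP3 it ran from 70.7 to 3474 RPKM. NSC held the most of the 5 populations in batches 1 to 3. Batch 3 was below batches 1 and 2 in every population, and batch 4 was below both except in GRP2/MP3, where batches 1 to 4 had 665.9, 2202, 113 and 1230 RPKM. The populations overlapped. Its log2 difference for the 4 progenitors together was -1.63 ± 1.26 and that of the general alpha-tubulin Tuba1b was -1.49 ± 0.96 (limma adjusted p = 1 for both). For BNAP/GRP1 the differences were -2.50 ± 1.59 and -1.80 ± 1.22 (adjusted p = 0.866 for both). For GRP2/MP3 they were -2.24 ± 1.59 and -1.10 ± 1.22, and for GRP3 -1.30 ± 1.59 and -1.77 ± 1.22 (adjusted p = 1 for all 4). Tuba1b was below its NSC library in all 16 progenitor libraries of the 4 batches, from 35.2 to 2263 RPKM against 302 to 4146 RPKM in NSC. Tuba1a made up 70.4% ± 11.3 (SD, n = 4) of alpha-tubulin RPKM in NSC, and the progenitor means lay between 48.4% ± 27.6 for GRP2/MP3 and 75.9% for PFMP, where single libraries ran from 39.9% to 89.7%.

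Tuba1c, a broadly expressed alpha-tubulin, split the progenitors into pairs in the first 2 batches. It had 240.5 and 122.4 RPKM in BNAP/GRP1 batches 1 and 2, and 179.8 and 154.9 RPKM in GRP2/MP3. In NSC, GRP3 and PFMP of the same batches it had 7.49 to 18.4 RPKM. In batch 3 all populations had 40.4 to 87.3 RPKM and in batch 4 all had 3.82 to 19.4 RPKM, and the populations overlapped. Over all batches the log2 difference from NSC was 1.84 ± 1.02 for BNAP/GRP1 (limma adjusted p = 0.866) and 2.19 ± 1.02 for GRP2/MP3 (adjusted p = 0.798). Microglial markers moved with it in batches 1 and 2. Their 8 genes summed to 2367 to 9707 RPKM in BNAP/GRP1 and GRP2/MP3 of batches 1 and 2, against 20.5 to 41.6 RPKM in the other populations of those batches, and to 1548 to 1725 RPKM in all 5 libraries of batch 3. Their part in the Tuba1c values was not tested. A fit of batches 1 and 2 alone was added after seeing the data, on the batches where the split was seen. Its p-values are therefore no independent test of that split. There Tuba1c was higher than in NSC by 3.82 ± 0.54 on the log2 scale for BNAP/GRP1 (limma adjusted p = 0.0145). For GRP2/MP3 it was higher by 3.78 ± 0.54 (adjusted p = 0.0133). In that fit 0.920% and 1.51% of all genes were called higher.

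Tuba4a, whose product lacks the final tyrosine, and the general beta-tubulin Tubb6 mostly followed the batch. Tuba4a had 95.6 to 107 RPKM in all 5 populations of batch 3, against 1.74 to 34.2 RPKM in the other 15 libraries. Tubb6 had 81.5 to 94.7 RPKM in batch 3, against 0.624 to 23.4 RPKM elsewhere. Within batches 1 and 2 both also differed between populations. Tubb6 had 4.50 to 7.53 RPKM there in BNAP/GRP1 and GRP2/MP3, against 0.624 to 2.31 RPKM in NSC, GRP3 and PFMP. Tuba4a had 34.2 and 3.35 RPKM in BNAP/GRP1 batches 1 and 2 and 21.25 and 24.1 RPKM in GRP2/MP3. In NSC, GRP3 and PFMP of those batches it had 2.93 to 6.81 RPKM. In batch 3 the populations were close to each other for both, while Tuba1a in that batch still spanned 113 to 722 RPKM. Tubb2a, close in sequence to Tubb2b, had 91.0 to 109 RPKM in batch 3 and 13.3 to 310.1 RPKM elsewhere, and Tubb5 had 98.6 to 107 RPKM in batch 3. The erythroid and airway genes were high in the same 5 libraries, as was the megakaryocyte gene Pf4 at 1583 to 1917 RPKM, which also reached 2365 RPKM in GRP2/MP3 batch 1. Their part in these tubulin values was not tested. Tuba4a differed from NSC by 1.21 ± 1.34 for BNAP/GRP1 (limma adjusted p = 0.866) and by 1.14 ± 1.34 for GRP2/MP3 (adjusted p = 1), and Tubb6 by less than 1 on the log2 scale in every population.

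**Figure D5:**
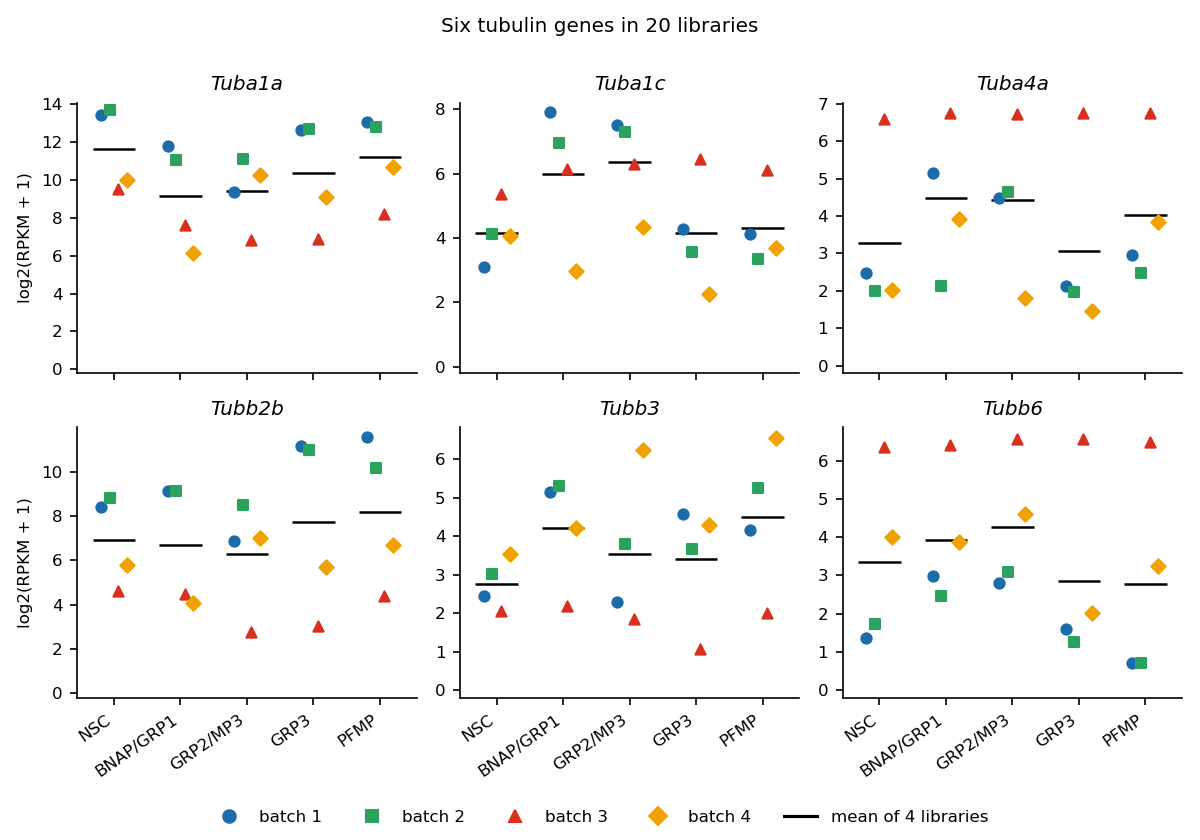
Expression as log2(RPKM + 1) of Tuba1a, Tuba1c, Tuba4a, Tubb2b, Tubb3 and Tubb6 in the 20 libraries, by population, with batch as colour and marker and the mean of 4 libraries as a bar. Batch 3 is the highest batch of every population for Tuba4a and Tubb6, and Tuba1c separates BNAP/GRP1 and GRP2/MP3 from the other populations in batches 1 and 2.

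The beta-tubulins of neurons were not called. Tubb3, the antigen of the neuronal antibody Tuj1, had 4.44, 7.12, 3.13 and 10.7 RPKM in NSC. Its highest values were in batch 4, with 93.3 RPKM in PFMP and 74.6 RPKM in GRP2/MP3, and it had at most 3.52 RPKM in batch 3. In BNAP/GRP1 batch 1 was above batch 4 (34.8 and 17.5 RPKM), as it was in GRP3 (22.7 and 18.6 RPKM). Its log2 difference from NSC was 1.45 ± 1.04 in BNAP/GRP1 (limma adjusted p = 0.866) and 1.73 ± 1.04 in PFMP (adjusted p = 1), and 1.15 ± 0.82 for the 4 progenitors together. The 9 neuroblast markers summed to their highest values in the same 2 libraries, 793 RPKM in GRP2/MP3 and 630 RPKM in PFMP of batch 4, mostly from Sp8 and Stmn2. Other markers of the list were highest elsewhere, such as Dlx2 (161 RPKM in GRP2/MP3 batch 2, 8.25 RPKM in batch 4) and Dcx (39.1 RPKM in PFMP batch 1). Their part in the Tubb3 values was not tested. Tubb4a, of neurons and oligodendrocytes, had 2.30, 0.504, 0.266 and 9.13 RPKM in NSC batches 1 to 4, and reached 63.8 RPKM in PFMP and 39.2 RPKM in GRP2/MP3 of batch 4. Its log2 difference was 1.32 ± 1.21 in GRP3 and 1.79 ± 1.21 in PFMP (adjusted p = 1 for both). Tubb2b differed by 1.29 ± 1.86 in PFMP and Tubb5 by 1.28 ± 1.08 in GRP2/MP3 (adjusted p = 1).

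Gamma-tubulin was low and not called. Tubg1, the general gamma-tubulin, ran from 0.902 to 22.1 RPKM over the 20 libraries, with a median of 5.88 RPKM, and its log2 difference was -1.01 ± 0.76 in GRP3 (limma adjusted p = 1). Tubg2, the gamma-tubulin enriched in brain, had a median of 0.337 RPKM and its highest value, 12.2 RPKM, in PFMP batch 4. The 5 members that were not tested were the testis alpha-tubulins Tuba3a and Tuba3b, the divergent alpha-tubulin Tuba8, the platelet beta-tubulin Tubb1 and the glycylase Ttll8. Their medians over the 20 libraries were 0 to 0.0719 RPKM. Their highest values were all in BNAP/GRP1 batch 4, from 5.98 RPKM for Tuba3a to 11.6 RPKM for Ttll8. Tubb1 had at most 0.44 RPKM in batch 3, where the megakaryocyte gene Pf4 was high.

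Between progenitor populations, 0 members and 0 of all genes passed in any of the 6 direct comparisons with limma. With batch 3 left out, 0 members and at most 0.00362% of all genes passed in either direction, and with the batch block added as well, 0 members and at most 0.0797% of all genes were lower and 0.167% higher (both for GRP2/MP3 against GRP3, where BNAP/GRP1 against GRP2/MP3 had 0.00724% lower). At an unadjusted p under 0.05 the count was 1 member, Tuba1c in GRP2/MP3 against GRP3, with a log2 difference of 2.21 ± 1.02 (adjusted p = 1), where 0.923% of all genes were higher at that level. The same gene differed by 2.04 ± 1.02 between GRP2/MP3 and PFMP and by 1.85 ± 1.02 between BNAP/GRP1 and GRP3. Other members also differed by 1 or more without passing. In BNAP/GRP1 against PFMP, Tuba1a was at -2.04, Tubb2b at -1.50 and Tubb6 at 1.15 on the log2 scale. In GRP2/MP3 against PFMP they were at -1.78, -1.915 and 1.48. Ttll7 was 1.29 ± 0.90 lower on the log2 scale in GRP2/MP3 than in GRP3 and did not pass. In batches 1 and 2, GRP3 had 8.07 and 10.0 RPKM of Ttll7 and PFMP had 9.96 and 8.86 RPKM, against 1.11 to 2.37 RPKM in BNAP/GRP1 and GRP2/MP3. In batches 1 and 2 alone, a fit added after seeing the data, 2 members passed in a direct comparison. There 1.08% of all genes were higher and 1.33% lower for GRP2/MP3 against GRP3, and 0.971% and 0.826% against PFMP. The 2 members were Tuba1c (limma adjusted p = 0.0362 for GRP2/MP3 against GRP3 and 0.0377 against PFMP) and Ttll7. For Ttll7 the adjusted p was 0.04998 for GRP2/MP3 against GRP3. These p-values are no independent test of differences first seen in the same batches.

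Other genes of the pathway were counted in lists. Of all genes tested, 1.96% were called lower in the 4 progenitors together and 0.0217% higher. At an unadjusted p under 0.05 these shares were 5.96% and 0.916%. The lists were chosen with earlier results known. Of 12 tested enzymes and partners of tail modification outside these families, 1 was lower in the 4 progenitors together and 0 were higher, with 3 lower and 0 higher at an unadjusted p under 0.05. It was Cep41, a centrosomal protein needed for glutamylation of ciliary tubulin, with 75.4, 29.6, 8.26 and 76.1 RPKM in NSC and a log2 difference of -2.89 ± 0.62 (limma adjusted p = 0.0107). Of 18 tested rows of severing enzymes and microtubule-associated proteins, 1 was lower and 0 were higher (2 and 0 at an unadjusted p under 0.05). It was Katnal2, a katanin-like gene, at -3.99 ± 0.71 (adjusted p = 0.002). The 12 genes of the gamma-tubulin complex and the rare tubulins had 0 calls in either direction, also at an unadjusted p under 0.05. The 19 folding cofactors and chaperonin subunits had 0 calls, with 1 lower and 0 higher at an unadjusted p under 0.05 and a median log2 difference of -0.41.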

How the data were processed

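The 5 sorted populations, each with libraries from pooled litters in 4 labelled batches, were measured by RNA sequencing. Per the labels and the study's methods, the authors trimmed reads with cutadapt 3.4, aligned them to GRCm38 with STAR 2.6.1, estimated transcript abundance with Salmon 1.9.0 and left out low-quality experiments, and they deposited RPKM per gene. Read totals are not given in the sources used here, so no counting interval was computed. Another 26 columns of the table were empty.

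RPKM was taken as log2(RPKM + 1). Genes at 1 RPKM or more in at least 4 of the 20 libraries were fitted with limma 3.58.1 (R 4.3.3) over all 5 populations, with a variance trend, no batch term and Benjamini-Hochberg adjustment over all 27614 genes. A call needed an adjusted p under 0.05 and, for the 4 progenitors together, a log2 difference above 0.25 in size. The script was tested on simulated data. Statistics are given for members called and for a part of those differing by 1 or more on the log2 scale. Further differences of that size, against NSC and between progenitors, are not listed and did not pass. The members and lists were chosen with earlier results of these data known. The labels number the batches without saying what a batch is. The study reports 4 independent experiments but does not link them to these numbers. Samples of a batch deviated together (the lowest correlation within a batch was 0.034), so the batch was used as a block in an alternative fit. The fit without the block treats the 20 libraries as separate samples, and its p-values measure the spread between these libraries, batches included. The coding ends of some alpha-tubulins are not reported here.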

Additional observations from a re-analysis of the deposited data

Results flagged for a closer look

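Of 175 groups of 4 libraries (35 members in 5 populations), 36 held a library far from the other 3 by Dixon's test. The test assumes independent normal values, while many of these values lie near 0 and libraries of a batch deviate together. It flags any value above 0 where the other 3 libraries are at 0, as for Ttll8 in PFMP. The count of 36 therefore cannot be set against a chance rate. No difference between groups of comparisons was flagged. Batch 4 held most of them. BNAP/GRP1 batch 4 stood out in 9 members, all high, with 10.82 RPKM of Tuba3b, 7.739 of Tuba8, 7.735 of Tubb1, 4.18 of Tubg2, 22.39 of Ttll2, 5.752 of Ttll6, 11.61 of Ttll8, 13.38 of Ttll9 and 9.301 of Agbl1. This is the library in which the median gene was also highest. GRP2/MP3 batch 4 stood out in 7, with 0.4586 RPKM of Tuba3b, 0.3842 of Tuba8, 39.2 of Tubb4a, 3.179 of Ttll6, 0.7449 of Ttll8, 2.853 of Ttll9 and 2.406 of Agbl5. GRP3 batch 4 stood out in 6, with 1.464 RPKM of Tuba3b, 1.138 of Tuba8, 3.036 of Ttll2, 0.9716 of Ttll6, 1.266 of Ttll8 and 1.371 of Agbl2. NSC batch 4 stood out in 5, with 0.5817 RPKM of Tuba3a, 1.585 of Tuba3b, 1.364 of Tuba8, 0.4843 of Tubb1 and 2.039 of Ttll2.

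PFMP batch 1 stood out in 4 members at low levels, with 0.06147 RPKM of Tuba3b, 0.03112 of Ttll6, 0.3563 of Ttll10 and 0.9647 of Ttll13. In batch 3, Tuba4a stood out in GRP3 (106.1 RPKM) and NSC (95.64 RPKM), Tubb6 in GRP3 (94.74 RPKM) and Ttll8 in PFMP (0.1303 RPKM). Ttll6 in NSC batch 2, at 18.05 RPKM, was the remaining one.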

How the results depend on the processing

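The counts of members called in either direction moved with the processing in every comparison against NSC. For BNAP/GRP1 the count of 1 became 3 when the libraries were scaled to a common sum or by median-of-ratios, 3 with the replicate block, 2 with the block and without batch 3, 7 in batches 1 and 2 alone and 0 with only the compared populations fitted. For GRP2/MP3 the count of 3 became 1 with a pseudocount of 0.1, 1 without the filter, 5 with the block, 7 in batches 1 and 2 alone and 0 with only the compared populations. For GRP3 the count of 3 became 1, 0, 5, 8 and 0 under the same changes. For PFMP the count of 3 became 7 with the block, 6 in batches 1 and 2 alone and 0 with only the compared populations. For all progenitors together the count of 4 became 2 with a mean of at least 5 RPKM required. Ttll6 and Ttll3 lie below that mean and were not tested there. The count became 8 with the block and 10 in batches 1 and 2 alone. The direct comparisons gave 2 members instead of 0 in batches 1 and 2 alone, an alternative added after seeing the data. Calls over all genes moved too. In batches 1 and 2 alone, 3.86% to 4.47% were lower and 0.920% to 1.83% higher in the single populations, and 5.65% and 1.30% for all progenitors together. For BNAP/GRP1 0.989% were lower with the common sum and 1.06% with median-of-ratios. With a pseudocount of 0.1, 0.630% were lower for GRP2/MP3 and 0.558% for GRP3, and without the filter 0.477% and 0.431%. The shares with the block and with only the compared populations are given with the calls above. The cause was not tested.

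Counts with 1 library left out at a time ran from 0 to 4 for BNAP/GRP1 and 0 to 3 for GRP2/MP3 and for GRP3. They ran from 0 to 5 for PFMP, 3 to 8 for all progenitors and 0 to 0 for the direct comparisons. The share of all genes called lower ran from 0.319% to 1.58% for BNAP/GRP1 and from 0.547% to 1.98% for GRP2/MP3. It ran from 0.536% to 1.79% for GRP3, 0.641% to 2.00% for PFMP and 1.00% to 3.19% for all progenitors. At most 0.112% were higher, and 0% passed in the direct comparisons. Tubb2b in BNAP/GRP1 against GRP3, at -1.025 on the log2 scale and not called, ran from -2.584 to 0.1148 and reversed without GRP3 batch 1 or 2. Leaving out batch 3 took the mean Tubb4b share of GRP3 from 10.3% to 3.64%.

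The scaling to a common sum moved the median of all genes for BNAP/GRP1 from 0.378 to 0.194. Read totals were not known, so no depth limit can be put on the values listed at 0. The libraries differed in markers of multiciliated cells, microglia and blood, and 4 libraries a population leave wide errors for the tubulins that vary by batch.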
